A study of Mus musculus with 6 samples.

Results

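The proteins of the cytosolic ribosome were taken from the arrays by name. A non-control probe was counted if its gene name began with Rpl or Rps and a digit, or was Rplp0, Rplp1, Rplp2 or Rpsa, and names with a pseudogene ending and those of the Rps6k kinases were left out. This gave 181 probes of 85 genes, and each gene was represented by its brightest probe, so that 85 of the 21893 genes tested are described. Of the 85 genes, 76 encode core subunit proteins (46 of the large subunit and 30 of the small), 8 are paralogs of a core gene, and Rps19bp1, which encodes a binding partner of the small subunit protein Rps19, was taken only because of its name. RefSeq lists 84 of the 85 as protein coding; Rps4y2, counted with the paralogs by its name, is listed as a transcribed pseudogene. All 85 passed the filter on dim probes (a signal well above background on 3 or more of the 6 arrays), and 84 were that bright on all 6; the exception was the paralog Rpl10l, on 3 arrays.

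Cardiomyocyte fractions were obtained by retrograde perfusion from adult mice 6 weeks after transverse aortic constriction (TAC), surgery in which the aorta is narrowed so that the left ventricle pumps against a higher pressure. One group was H19 knockout (3 arrays) and the other their wild-type littermates (3 arrays), and both groups had the operation, so every difference below is between genotypes under load. H19, a long non-coding RNA from an imprinted locus, is the deleted gene, and the question is which transcripts differ without it. The labels do not give the deleted part of H19, the sex of the mice or whether each array held RNA of 1 mouse, so p-values measure only the spread between these samples, which may be technical.

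The cytosolic ribosome joins a small subunit, which decodes the mRNA, and a large subunit, which forms peptide bonds, and almost every one of its proteins is needed in equal number. The mRNAs of these proteins carry a pyrimidine stretch at their 5′ end, the terminal oligopyrimidine (TOP) motif, through which mTOR and Larp1 set their translation, and Myc and RNA polymerase I set the supply of ribosomes with growth. A loaded heart enlarges by growth of its cardiomyocytes, and more ribosomes are part of that growth. Arrays read mRNA abundance and say nothing of how well these mRNAs are translated.

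The start sites of 3 members with the pyrimidine stretch, and of a paralog without it, are shown because these members come back below. Each line gives 30 bases before and 15 bases from the annotated start in RefSeq (GRCm38.p6), 5′ to 3′ on the strand of the gene, with the unbroken run of C and T that covers the start base in capitals. Rps6 (small subunit, the substrate of the S6 kinases) lies at chr4:86857353-86857397 on the minus strand, Rplp2 (ribosomal stalk) at chr7:141447621-141447665 on the plus strand and Rps9 (small subunit) at chr7:3704011-3704055 on the plus strand. Rpl3l, the muscle paralog of Rpl3, has 2 starts in the table, at chr17:24727796-24727840 and chr17:24732655-24732699, both on the plus strand.
Rps6: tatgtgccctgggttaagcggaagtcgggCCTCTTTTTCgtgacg
Rplp2: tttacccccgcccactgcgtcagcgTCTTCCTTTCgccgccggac
Rps9: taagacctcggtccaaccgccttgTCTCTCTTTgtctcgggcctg
Rpl3l, first start: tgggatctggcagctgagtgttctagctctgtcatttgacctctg
Rpl3l, second start: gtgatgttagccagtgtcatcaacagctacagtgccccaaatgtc

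Promoters were matched by symbol for 64 of the 85 members. A run of at least 5 pyrimidines over the start base was present in 20 of the 64 (31.2%), against 11.8% of 27025 promoters in the table. CGGAAG, the core of ETS factor motifs, read on both strands between 250 bases before and 50 bases after the start, was present in 44 of the 64 (68.8%) against 18.8% of all promoters. CTCTTTC, a pyrimidine string, was present on either strand in 17 of the 64 (26.6%) against 9.28%; the 2 strings can share only the base where their ends join, while CTCTTTC can fall inside the run. All of the runs and all CTCTTTC matches were in core genes, and none of the 7 matched paralogs held either. A match describes letters only, and a missing match says only that these letters are not in the window at the annotated start.

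The arrays were alike in detection and correlation, but not in the gap between their median and 75th percentile. The share of the 59305 non-control spots that stood well above background was 48.8% to 58.6%, no spot was saturated, and Pearson correlations between arrays over genes were 0.981 to 0.990 both within and between genotypes. The log2 median of non-control spots was 6.63, 6.56 and 6.09 on wild-type replicates 1 to 3 and 6.11, 6.40 and 6.00 in the knockout. The log2 75th percentile was 9.60, 9.94 and 9.87 in wild type and 9.90, 10.17 and 9.84 in the knockout. The gap was smallest on wild-type replicate 1 and next smallest on wild-type replicate 2. Genotype differences therefore depend on which of these values scales the arrays. Slide 1 carried the first replicate of both genotypes and slide 2 the other replicates. H19 was at 1.41, 0.46 and 0.53 on the wild-type arrays (log2 intensity relative to the array's 75th percentile, the scale used throughout) and was well above background on 0 of the 3 knockout arrays; it was at least 64.5-fold lower in the knockout (limma, Benjamini-Hochberg adjusted p = 0.00237). All 10 cardiomyocyte markers were well above background on all 6 arrays, and so were all 10 fibroblast, all 10 endothelial and all 10 macrophage markers, so markers of other cells were present in these fractions. In such bulk samples fewer cells of a type and less RNA per cell cannot be told apart. Of all genes tested, 7 had an adjusted p under 0.05 (0.032%), with 1 gene higher and 6 lower in the knockout (against 101 higher and 17 lower with arrays scaled to their medians), 1739 had an unadjusted p under 0.05 (7.94%), 2298 had groups that did not overlap (10.5%), and 7945 lay above 0 in the knockout (36.3%).

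None of the 85 ribosomal protein genes differed between H19 knockout and wild-type cardiomyocytes past the threshold in limma with Benjamini-Hochberg adjustment; the lowest adjusted p was 0.62. At an unadjusted p under 0.05 there was 1 of 85, the transcribed pseudogene Rps4y2, which was also the only member whose groups did not overlap; of the 84 members listed as protein coding, 0 met either rule. The median difference (knockout minus wild type) was 0.01 over the members and -0.06 over all genes tested. Of the members, 47 lay above 0 and 38 below it. With arrays scaled to their medians every difference moved up by 0.42, so 81 of 85 members and 81.3% of all genes lay above 0, and still no member passed. Large subunit proteins had a median of 0.02 with 28 of 46 above 0, and small subunit proteins had a median of 0.00 with 16 of 30 above 0.

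The differences of the members had smaller errors than those of genes at large. The median standard error was 0.16 for the members and 0.20 for all genes. The 95% interval of the difference lay within a 1.5-fold change in either direction for 78 of the 85 members, against 44.0% of all genes tested. This was not particular to the members. Of the lists described below, it held for 69 of 80 mitochondrial ribosomal proteins, 28 of 32 initiation factors and 35 of 39 ribosome assembly factors. It held for fewer of the RNA polymerase I genes (8 of 12) and of the mTOR and Myc regulators (9 of 21). Leaving aside Rps9, every core gene had a difference between -0.15 and 0.14. The median interval reached 0.39 to either side of the difference on the log2 scale, and these intervals are not adjusted for the number of genes.

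**Figure D1:**
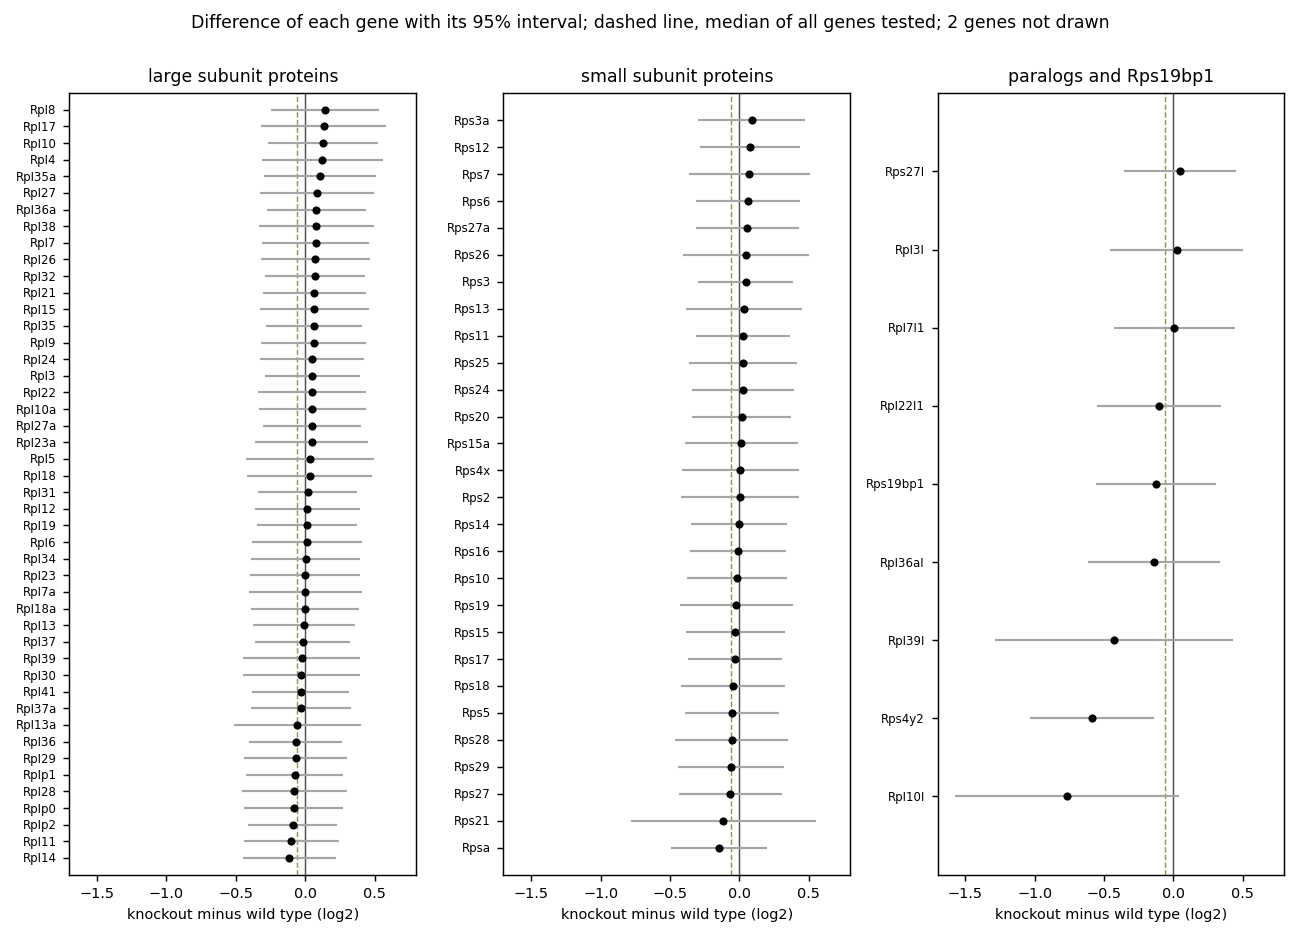
Knockout minus wild type of each gene (points, log2) with its 95% interval (grey bars, limma, 3 arrays a group), in panels for large subunit proteins, small subunit proteins, and paralogs with Rps19bp1; the dashed line is the median of all genes tested (-0.06). The core genes lie between -0.15 and 0.14 with intervals that cover 0; Rps4y2 at -0.59 is the one gene whose interval does not, and 2 genes, among them Rps9 (-2.10, interval -6.05 to 1.85), are not drawn.

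Among the core genes without Rps9, the genes at both ends of the range had overlapping groups. Rpl8, a large subunit protein near the peptidyl transferase centre, had the highest difference. It was at 5.97, 6.32 and 6.10 on the wild-type arrays and at 6.43, 6.15 and 6.25 on the knockout arrays, a difference of 0.14 (SE 0.16, limma adjusted p = 0.98). Rpl17 followed at 0.13 (SE 0.19) and Rpl10, the protein that completes the large subunit late in its assembly, at 0.13 (SE 0.17); neither passed. Rpsa, a small subunit protein also described as a laminin receptor, was at 6.85, 6.79 and 6.91 in wild type and at 6.87, 6.61 and 6.63 in the knockout, where replicates 2 and 3 lay under all wild-type arrays and replicate 1 among them. Its difference was -0.15 (SE 0.15, limma adjusted p = 0.94), and Rpl14 of the large subunit stood at -0.12 (SE 0.14, limma adjusted p = 0.999).

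The stalk of the large subunit, which recruits the translation factors that use GTP, is built from Rplp0, Rplp1 and Rplp2. Rplp0 was at 7.04, 7.13 and 7.16 in wild type and at 7.18, 6.86 and 7.05 in the knockout. Rplp1 was at 7.05, 6.91 and 7.14 in wild type and at 7.08, 6.87 and 6.93 in the knockout. Rplp2 was at 8.10, 8.07 and 8.02 in wild type and at 8.06, 7.88 and 7.98 in the knockout. In each of the 3 genes knockout replicate 2 was the lowest array and the groups overlapped. The differences were -0.08, -0.07 and -0.09, with standard errors of 0.15, 0.15 and 0.14, and none passed.

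A panel of single genes had overlapping groups. Rps6 was at 6.69, 6.62 and 6.84 in wild type and at 6.97, 6.62 and 6.75 in the knockout, a difference of 0.06 (SE 0.16). Rps27a, which is made as a fusion with ubiquitin, differed by 0.06 (SE 0.16), and Rpl13a, a frequent reference gene in quantitative PCR, by -0.06 (SE 0.19). Rps19bp1 was at 3.66, 3.45 and 3.84 in wild type and at 3.76, 3.48 and 3.33 in the knockout, a difference of -0.13 (SE 0.18). None of these 4 genes passed in limma after adjustment.

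The 85 genes moved together from array to array more than between genotypes. Each gene's values were set against its own mean over the 6 arrays. The median deviation of the members was -0.07, -0.03 and 0.10 on the wild-type arrays 1 to 3 and 0.17, -0.15 and -0.01 on the knockout arrays 1 to 3. The highest and the lowest array were thus both knockout arrays: 78 of 85 members lay above their own mean on knockout replicate 1, and 3 of 85 on knockout replicate 2. Over the 75 core genes without Rps9, the 6 array medians held 60.4% of the variance of the single values about their gene means, and the mean absolute deviation went from 0.11 to 0.06 once these medians were subtracted.

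**Figure D2:**
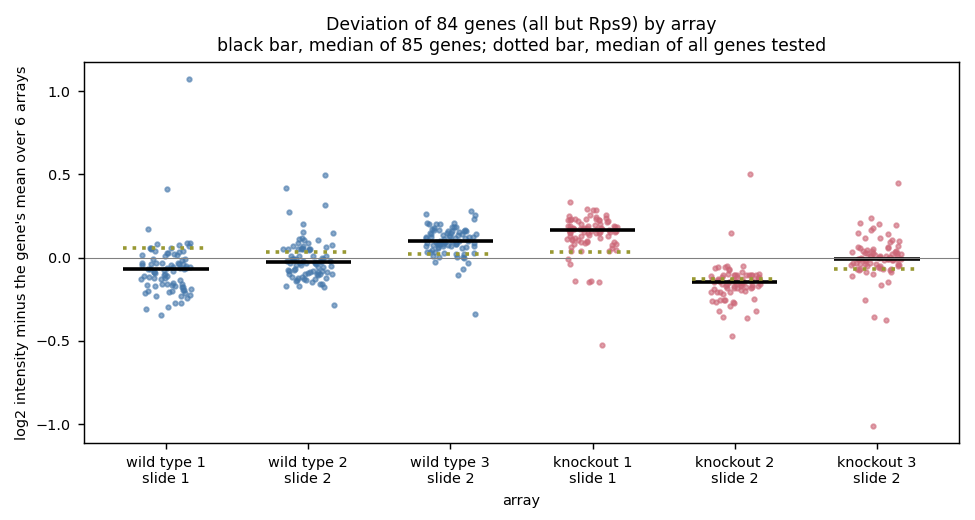
Deviation of each gene from its own mean over the 6 arrays (points, log2; blue wild type, red knockout), by array, with the median of the 85 members (black bars) and of all genes tested (dotted bars). The members are highest on knockout replicate 1 (0.17) and lowest on knockout replicate 2 (-0.15), and the wild-type arrays lie between; Rps9 is not drawn.

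The sign of the difference followed the slide. On slide 1, with 1 array of each genotype, 81 of the 85 members were higher in the knockout, with a median difference of 0.24, against -0.02 for all genes. On slide 2, with 2 arrays of each genotype, 4 of the 85 were higher, with a median of -0.11, against -0.13 for all genes. The 4 genes that were not higher on slide 1 were Rplp2 (-0.04) and the paralogs Rps4y2 (-0.56), Rpl10l (-1.59) and Rpl39l (-0.31). The genes that were higher on slide 2 included Rpl38 (0.07), Rpl3 (0.02) and Rps12 (0.02), of which Rpl38 and Rps12 are named here only because of these values. The count over both slides, 47, depended on which array was left out. Without wild-type replicate 1, 23 of the 85 lay above 0, and without knockout replicate 1, 13 did. Leaving out wild-type replicate 3 gave 63 and leaving out knockout replicate 2 gave 70. Without wild-type replicate 2 the count was 40, and without knockout replicate 3 it stayed at 47. The within-slide medians have no test, and the difference of 0.01 over both slides rests on medians of opposite sign.

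**Figure D3:**
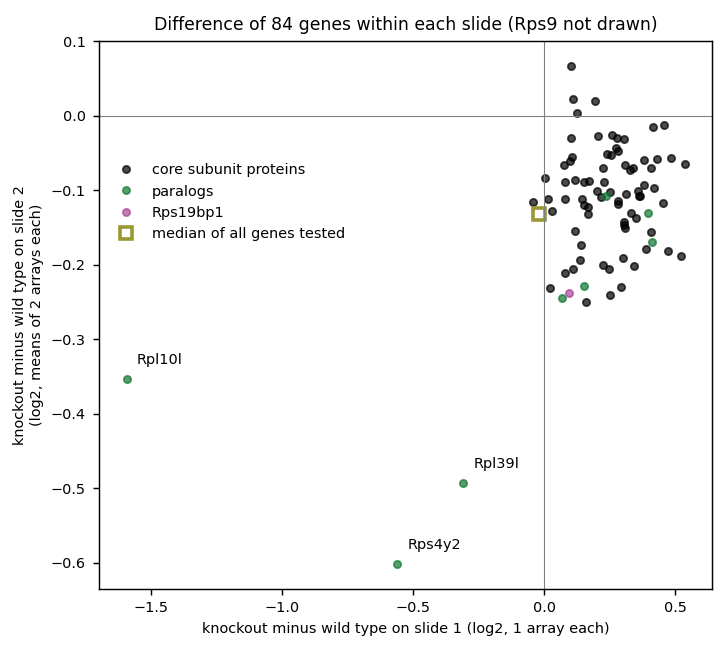
Knockout minus wild type of each gene on slide 1 (horizontal, 1 array a group) against slide 2 (vertical, means of 2 arrays a group), in log2; black, core genes; green, paralogs; purple, Rps19bp1; the open square is the median of all genes tested. Nearly all core genes fall to the right of 0 and below 0, while Rps4y2, Rpl10l and Rpl39l lie below 0 on both axes; Rps9 is not drawn.

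Other bright genes showed the same slide pattern, a comparison chosen after the values were seen. Among genes with a mean level from 5 to 7, the 42 core genes had a median of 0.29 on slide 1 and -0.11 on slide 2, and the 1488 genes outside the family had 0.26 and -0.13. At a level of 7 or more, the 30 core genes had 0.14 and -0.09, and the 336 other genes had 0.13 and -0.13. On slide 1, 91.1% of the other genes from 5 to 7 were above 0, against 100% of the core genes there. Across the 75 core genes the difference on slide 1 was smaller the brighter the probe (Spearman's rho -0.45; these genes share the same 2 arrays, so this is a description). The array pattern was therefore shared with non-ribosomal genes of like brightness, whereas the array medians held 64.4% of the variance for the 72 core genes of level 5 or more and 33.8% for the 1824 others.

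Markers of other cells moved with the arrays as well. All 10 fibroblast markers lay above 0 in the knockout (median difference 0.64) and all 10 macrophage markers below 0 (-0.58), against 36.3% of all genes above 0. In limma 0 markers of either list were called. The sign of the fibroblast markers changed with the slide: 0 of 10 were above 0 on slide 1 (median -0.56) and 10 of 10 on slide 2 (1.35). The macrophage medians were -0.72 and -0.50 on slides 1 and 2. The fibroblast markers had a mean level of 2.02 to 3.20 on the wild-type arrays and of 2.62 to 4.14 on the knockout arrays. Their median deviation was 1.28 on knockout replicate 2, where the ribosomal proteins were lowest, and -0.33 on knockout replicate 1, where these were highest. On wild-type replicate 3, with ribosomal proteins at 0.10, the fibroblast markers were at -0.84. On wild-type replicate 2 the signs were the same, with ribosomal proteins at -0.03 and fibroblast markers at -0.43. On wild-type replicate 1 and knockout replicate 3 the fibroblast markers were at 0.28 and 0.05, and the ribosomal proteins at -0.07 and -0.01. The macrophage markers had a mean level of 1.43 to 1.92 in wild type and of 0.71 to 1.81 in the knockout. Their deviation was 0.09, 0.18 and 0.55 on wild-type replicates 1 to 3 and -0.68, 0.46 and -0.60 on knockout replicates 1 to 3. Of the lymphocyte markers, 4 of 9 were bright enough to test, and Ms4a1 was well above background on 0 of 6 arrays. Of the erythroid markers, 3 of 6 were tested. Their median deviation was 3.07 on knockout replicate 2, 2.57 on wild-type replicate 1 and -2.57 on knockout replicate 1. Endothelial markers also changed sign with the slide, with 0 of 10 above 0 on slide 1 (median -0.78) and 10 of 10 on slide 2 (0.46). The cardiomyocyte markers had medians of 0.23 and -0.15 on slides 1 and 2. Their median deviation was -0.01, 0.09 and 0.05 on wild-type replicates 1 to 3. On knockout replicates 1 to 3 it was 0.14, -0.20 and 0.01. The part of these cell types in the ribosomal protein values was not tested.

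A few core genes left the common pattern. Rps21, named here because it strayed furthest, was at 3.33, 3.91 and 3.84 in wild type and at 3.49, 3.16 and 4.08 in the knockout; the residual from the array medians had an SD of 0.34. Rpl3, the large subunit protein next to the peptidyl transferase centre, came second with 0.16. It was at 5.10, 5.17 and 5.29 in wild type and at 5.21, 5.36 and 5.15 in the knockout, so its highest array was knockout replicate 2, on which 3 of 85 members lay above their mean. Rps21 and Rpl3 differed between genotypes by -0.11 (SE 0.28) and 0.05 (SE 0.15), and neither passed.

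The 8 genes counted as paralogs are relatives of a core gene, and several are best known from a restricted tissue. Their median difference was -0.12 with 3 of 8 above 0, and 4 of 8 had an interval within 1.5-fold; the 7 listed as protein coding had a median of -0.10. The probes of the pair most used in heart muscle, Rpl3 and Rpl3l, and of the gene with separate groups, Rps4y2, are given because these results rest on 1 probe each. They are printed in lower case, 5′ to 3′ as in the array files, with no part marked, at the files' mm9 positions. Rps4y2 (RefSeq symbol Rps4l) lies at chr6:148304043-148304102, Rpl3 within chr15:79908489-79908772 and Rpl3l within chr17:24872413-24872681; the last 2 probes are shorter than the stretch they cover, as a probe across an exon junction is.
Rps4y2: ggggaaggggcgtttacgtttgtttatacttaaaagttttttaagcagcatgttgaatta
Rpl3: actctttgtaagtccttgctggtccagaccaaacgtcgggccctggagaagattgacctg
Rpl3l: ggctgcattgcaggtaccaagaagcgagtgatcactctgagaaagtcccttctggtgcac

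Rps4y2 is an autosomal copy of the X-linked small subunit gene Rps4x that RefSeq lists as a transcribed pseudogene, and the array files give it a non-coding RNA record, so its values are of a transcript and not of a known ribosomal protein gene. It was at 1.55, 1.63 and 1.11 on the wild-type arrays and at 0.99, 0.77 and 0.76 on the knockout arrays. All 3 knockout arrays lay under all 3 wild-type arrays, with wild-type replicate 3 nearest to them. The difference was -0.59 (SE 0.19, 95% interval -1.03 to -0.14), with an unadjusted p of 0.017 and a limma adjusted p of 0.62, so it did not pass. The difference was -0.56 on slide 1 and -0.60 on slide 2. With 10.5% of all genes having groups that do not overlap and 7.94% an unadjusted p under 0.05, 1 such gene among 85 lies under the background share.

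Rps4x was at 5.72, 6.11 and 6.05 in wild type and at 6.03, 5.76 and 6.11 in the knockout, and its groups overlapped. Its difference was 0.01 (SE 0.18). Taken within each array, the log ratio of Rps4y2 to Rps4x differed between genotypes by -0.59, with an exact two-sided permutation p of 0.10, the smallest that 3 against 3 arrays can give, and 0.53 after Benjamini-Hochberg adjustment over the 8 pairs compared. No pair passed, and the lowest adjusted p of the 8 exact tests was 0.53.

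Rpl3l is the form of Rpl3 made in heart and skeletal muscle. It was at 5.49, 5.55 and 5.64 in wild type and at 5.90, 5.22 and 5.63 in the knockout. The knockout arrays lay on both sides of the wild-type arrays, which were closer together. Rpl3l differed by 0.02 (SE 0.20) and Rpl3 by 0.05 (SE 0.15). The log ratio of Rpl3l to Rpl3 differed by -0.03, with an exact two-sided permutation p of 1.

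Rpl10l and Rpl39l, both best known from the testis, were dim on these arrays. Rpl10l was at -2.91, -3.57 and -4.32 in wild type and at -4.50, -4.25 and -4.34 in the knockout, a difference of -0.77 (SE 0.34, limma adjusted p = 0.63) that went from -1.59 on slide 1 to -0.35 on slide 2. It was well above background on 3 of the 6 arrays, so its level in the other 3 is only bounded. Rpl39l was at -2.28, -2.13 and -2.29 in wild type and at -2.59, -1.94 and -3.46 in the knockout. The difference of -0.43 (SE 0.36) rested on knockout replicate 3, and it was -0.03 without that array.

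The remaining paralogs and their parent genes had differences between -0.14 and 0.08. Rps27l, a target of p53, differed by 0.05 (SE 0.17) and Rps27 by -0.06 (SE 0.16). Rpl36al differed by -0.14 (SE 0.20) and Rpl36a by 0.08 (SE 0.15). Rpl22l1 differed by -0.10 (SE 0.19) and Rpl22 by 0.05 (SE 0.16). Rpl7l1 differed by 0.01 (SE 0.18) and Rpl7 by 0.07 (SE 0.16). None of these genes passed in limma after adjustment, and in the 4 pairs the log ratios of the groups overlapped.

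Rps9 gave the largest difference of all members and rested on 1 spot. It was at 7.49, 7.07 and 7.48 on the wild-type arrays and at 7.51, 7.32 and 0.91 on the knockout arrays. Only knockout replicate 3 was low, and the other 5 arrays overlapped. The difference was -2.10 (SE 1.66, limma adjusted p = 0.85), and without that array it was 0.07. On the array the spot read an intensity of 1728, against 131346 to 183770 on the others, and it carried no flag for an uneven or outlying spot.

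A second ribosomal protein probe had the same drop on the same array. Rps2 has 2 probes, and one of them was at 6.54, 6.52 and 6.64 in wild type and at 6.84, 6.46 and -2.48 in the knockout. The other, which represented the gene because it was brighter, was at 6.65, 6.62 and 6.86 in wild type and at 6.96, 6.45 and 6.72 in the knockout. The 2 probes of the same gene therefore went apart on knockout replicate 3 and on no other array. Of the 3273 to 3371 probes that were above 4 on all arrays other than the one examined, 3 lay more than 4 log2 units under the lowest of the other 5 arrays on knockout replicate 3, and none did on any of the other 5 arrays. These were the probes of Rps9, Rps2 and Ndufa6, a subunit of respiratory complex I; the second Rps2 probe and Ndufa6 are named because of these values.

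The 3 ribosomal probes are given so that the spots can be traced, again in lower case with no part marked and with mm9 positions from the files. Rps9 lies at chr7:3658287-3658346, the brighter Rps2 probe at chr17:24857583-24857642 and the dropped Rps2 probe at chr17:42864841-42864900, which is another place on the same chromosome.
Rps9: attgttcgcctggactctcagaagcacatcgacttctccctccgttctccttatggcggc
Rps2, brighter probe: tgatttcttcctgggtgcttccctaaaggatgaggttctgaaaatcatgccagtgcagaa
Rps2, dropped probe: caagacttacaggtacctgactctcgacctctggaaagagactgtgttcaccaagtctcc

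**Figure D4:**
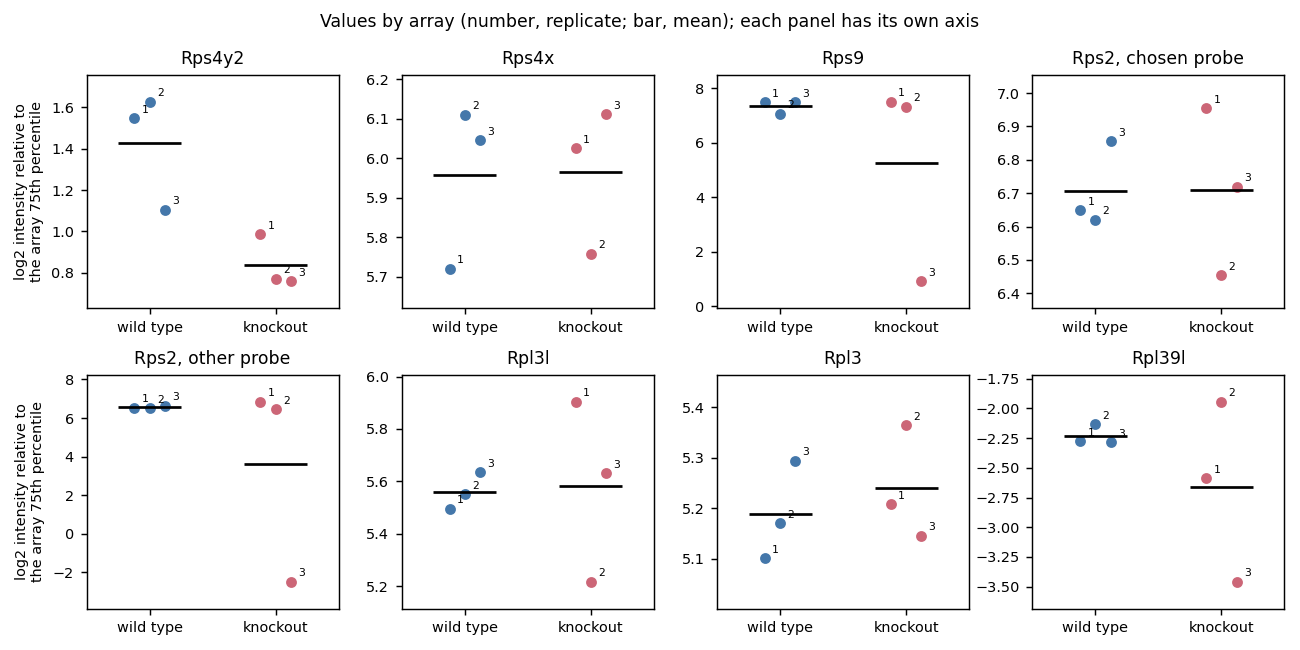
Log2 intensity relative to the array's 75th percentile by array (points, numbered by replicate; bars, group means) for Rps4y2, Rps4x, Rps9, both probes of Rps2, Rpl3l, Rpl3 and Rpl39l, each panel on its own axis. Rps4y2 has separate groups (0.76 to 0.99 in the knockout, 1.11 to 1.63 in wild type), and the drops of Rps9 to 0.91 and of 1 Rps2 probe to -2.48 stand on knockout replicate 3 alone.

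Probes of 1 gene mostly gave differences close to each other, but so did different genes. Of 54 members with at least 2 tested probes, 50 had probes within 0.25 of each other, and the median spread was 0.08. The core genes other than Rps9 lay between -0.15 and 0.14, a range hardly wider than this limit. The count therefore says little about agreement between probes of the same gene. The widest spreads were those of Rps2 (2.96), Rps27a (0.76) and Rpl6 (0.57), named because of these values. In Rps27a the brightest probe differed by 0.06, another by 0.05 and the lowest of its 3 probes by -0.70. That lowest probe was dim, at -4.43 to -3.07, and well above background on 5 arrays. In Rpl6 the lowest probe (-0.47) was also dim, at -4.18 to -3.03, and well above background on 3 arrays. Over all 179 tested probes, 106 lay above 0, with a median of 0.02. Ribosomal protein genes have many near-identical processed copies, and 34 of the 85 chosen probes share a stretch of 25 bases with a probe of another name, while 4 are placed by the files on another chromosome than their gene (Rps27, Rps29, Rpl12 and Rpl13). Values of such genes may hold signal of a copy. The 48 tested probes of names left out as pseudogenes had a median difference of -0.04, with 16 of 48 above 0.

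The genes that belong to the ribosome or to its mRNA class under other names included 1 of 20 with an unadjusted p under 0.05 (7.94% of all genes), 3 of 20 with groups that did not overlap (10.5% of all genes) and 0 past the adjusted threshold in limma, with a median of -0.02 and 8 of 20 above 0. Eif3k, a subunit of initiation factor eIF3, was at 6.20, 6.39 and 6.24 in wild type and at 5.59, 5.25 and 5.25 in the knockout. Its groups did not overlap, and the difference was -0.92 (SE 0.16, unadjusted p = 0.000825, limma adjusted p = 0.56). Averaging the probes of the gene gave -0.55. Fau, the ubiquitin-like fusion of a small subunit protein, differed by 0.01 (SE 0.14), Rack1 of the small subunit head by 0.05 (SE 0.16) and the elongation factor Eef1a1 by 0.23 (SE 0.15).

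The other stages of ribosome supply gave no call in limma either, and 0 genes of the 5 lists that follow had an unadjusted p under 0.05, against 7.94% of all genes. Initiation factors had a median of -0.02 with 13 of 32 above 0. Eif2b2, of the eIF2 exchange factor, differed by -0.83 (SE 0.60) because of 1 value of 1.44 on knockout replicate 3. Eif4ebp1, the inhibitor of the cap-binding factor and a target of mTOR, differed by -0.19 (SE 0.18), and the scaffold Eif4g3 by 0.16 (SE 0.15). Ribosome assembly factors had a median of -0.02 with 15 of 39 above 0; Mdn1, the ATPase that frees factors from large subunit precursors, differed by 0.16 (SE 0.15).

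RNA polymerase I and its factors, which make ribosomal RNA, had a median of -0.02 with 5 of 12 above 0. Its large subunits Polr1a and Polr1b differed by -0.24 (SE 0.19) and -0.26 (SE 0.18), and the initiation factor Rrn3 by -0.22 (SE 0.20). Knockout replicate 2 was the lowest of the 6 arrays in each of the 3 genes. The mTOR and Myc regulators had a median of 0.01 with 11 of 21 above 0. Tsc2, an inhibitor of mTOR, differed by -0.58 (SE 0.29), with -1.23 on slide 1 and -0.25 on slide 2. It was at -1.46, -1.96 and -2.63 in wild type and at -2.69, -2.62 and -2.47 in the knockout. The kinase Rps6ka3 differed by 0.27 (SE 0.14) and Akt1s1, a part of mTOR complex 1, by 0.23 (SE 0.24). The groups of Rps6ka3 did not overlap, which held for 1 of 21 genes here and 10.5% of all genes. None of these 3 genes passed, and their lowest limma adjusted p was 0.66.

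The proteins of the mitochondrial ribosome, a separate machine that makes the mitochondrially encoded subunits of the respiratory chain, served as the nearest comparison. Their median difference was -0.04 with 19 of 80 above 0, against 47 of 85 of the cytosolic set, and no gene of either set was called. Their array medians followed the same order at both ends, with 0.21 on knockout replicate 1 and -0.24 on knockout replicate 2, and within slides their medians were 0.30 and -0.20. Mrps12 differed most, at 4.58, 3.79 and 4.64 in wild type and 5.23, 4.79 and 4.74 in the knockout. Its difference was 0.58 (SE 0.27, limma adjusted p = 0.64). It had separate groups, which held for 1 of the 80 genes against 10.5% of all genes. The difference between the 2 sets was not tested.

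**Figure D5:**
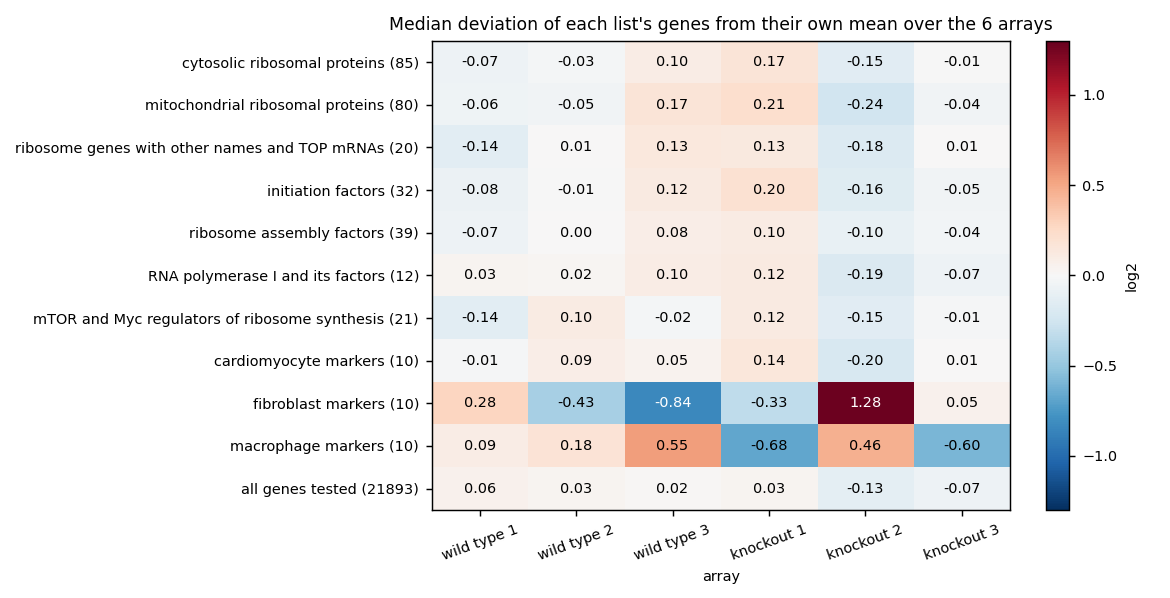
Median deviation (log2) of the genes of each list from their own mean over the 6 arrays, by array (columns) and list (rows, number of genes tested in brackets); red is higher and blue lower. The cytosolic ribosomal proteins go from 0.17 on knockout replicate 1 to -0.15 on knockout replicate 2, the mitochondrial ribosomal proteins from 0.21 to -0.24, and the fibroblast markers go the opposite way, from -0.33 to 1.28.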

How the data were processed

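The authors deposited 1 scanner table per array; per the file headers these are 1-colour intensity values from Agilent Feature Extraction 10.7.3.1, background-subtracted, detrended, not scaled between arrays, with mm9 probe positions and flags per spot. The authors' deposited value table holds a quantile-normalized linear intensity. From the log2 processed intensity, each array's 75th percentile (774 to 1152 before the log) was subtracted here. Control and outlier spots were left out, spots of a probe averaged, and probes well above background on at least 3 arrays kept. Names came from the files and RefSeq (GRCm38.p6). Genotypes were compared over all genes with limma 3.58.1 (lmFit, eBayes; R 4.3.3), Benjamini-Hochberg at 0.05, the source of every adjusted p of a gene. The procedure was tested on simulated data. Values of 1 member and 1 list gene are not reported here. Differences of log2 values are knockout minus wild type. The members and lists were chosen with earlier results of these data known. Named genes are the 10 members of smallest p, the 3 highest and 3 lowest, all paralogs with parents, a fixed panel, and up to 3 genes per list by p. Alternatives were normexp (offset 50), quantile normalization, median scaling, the deposited values, other filters on dim probes, probe means, replicate or slide block, trend with robust prior, array weights and leaving out arrays; centring on the members and leaving out Rps9 or Rps4y2 were added after seeing the data. The same-numbered arrays of the genotypes were checked for pairing.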

Additional observations from a re-analysis of the deposited data

How the results depend on the processing

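No member was called under any of the 19 settings with a limma test, and the lowest Benjamini-Hochberg adjusted p of a member was 0.054, for Rpl10l without wild-type replicate 3. Rps4y2 stayed below 0 throughout, from -0.76 with array weights to -0.16 with median scaling, at adjusted p from 0.063 to 1. Of the 28 named members, 6 kept their sign in every tested setting but centring on the members (Rpl10, Rpl10l, Rpl36a, Rpl39l, Rpl8 and Rps4y2). The within-slide differences have no test and are not in this count. Within slide 2, Rpl8, Rpl10 and Rpl36a changed sign (-0.013, -0.015 and -0.031), while Rpl10l, Rpl39l and Rps4y2 were below 0 on either slide.

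The count of all genes called went from 7 to 3 with quantile normalization and with the authors' deposited values, to 118 with median scaling, to 1 without a filter on dim probes, to 1 with the slide as a block and to 2 with arrays centred on the members. Median scaling moved every difference by 0.42; it put 81 of 85 members above 0 with a median of 0.44 and 81.3% of all genes above 0, and the members stayed 0.07 above all genes. Its calls were 101 higher and 17 lower, against 1 and 6 on the main scale. Without the filter on dim probes they were 0.19 above all genes, since many dim genes entered. Within slide 1, 81 members were above 0 with a median of 0.24, which was 0.26 above all genes; within slide 2, 4 members were above 0.

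Leaving out 1 array at a time gave 1 to 10 genes called, 13 to 70 members above 0, a members' median from -0.08 to 0.09 and a median 0.04 to 0.13 above all genes. Members above 0 numbered 23 and 13 when the wild-type or the knockout array of slide 1 was left out, 63 when wild-type replicate 3 was, and 70 when knockout replicate 2 was. Same-numbered arrays did not deviate together (r of -0.22, -0.05 and 0.04), so the numbers were not taken as pairs; with the replicate block 1 gene was called in place of 7, and 0 members.

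The number of arrays and the signal over background, with between 48.8% and 58.6% of spots well above it, limit what can be detected.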
